A study of Homo sapiens with 6 samples.

Results

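The 6 genes described here encode the C9orf72 complex (SMCR8, C9orf72 and WDR41) and the related folliculin complex (FLCN, FNIP1 and FNIP2). SMCR8 was selected on its measured fold change, since its mRNA was among the lowest after incubation with IRE1 in these same libraries, and the 5 other genes were taken for their place in the complexes. All 6 were found among the 57905 gene identifiers of the count files, and all 6 were among the 14398 genes with enough counts to be tested. Since the choice of SMCR8 used its difference between the groups, that difference is described without a test.

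The libraries were made from total RNA of NCI-H929 (H929), a human multiple myeloma cell line. In each reaction 5 µg of this RNA was kept at 37 °C for 1 h, either with 2 µg of recombinant human ERN1/IRE1a (residues 467 to 977) or in the same buffer without enzyme, and was then held at 95 °C for 5 min. Each group holds 3 libraries, called control and IRE1-treated replicates 1 to 3, which the series describes as 6 biological replicates of the line. Each was sequenced in its own lane, so lane and sample cannot be told apart. The comparison asks which mRNAs lose reads when purified RNA meets the nuclease, since poly-T beads were used afterwards to take up RNA that still carries its poly(A) tail. The setting is a model outside the cell, with a part of the enzyme, in the absence of ribosomes, membranes and the other cell components, and with RNA of a single cell line.

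SMCR8 and C9orf72 fold through DENN domains and form, with the WD40-repeat protein WDR41, a GTPase-activating complex for small GTPases that is recruited to lysosomes through the amino acid transporter PQLC2 (gene SLC66A1). FLCN pairs with FNIP1 or FNIP2, which also hold DENN domains, and this complex stimulates GTP hydrolysis by RagC and RagD at the lysosome, a step that controls mTORC1 signalling to the transcription factors TFEB and TFE3. A repeat expansion in C9orf72 is a cause of amyotrophic lateral sclerosis and frontotemporal dementia, and loss of FLCN causes Birt-Hogg-Dubé syndrome. IRE1 is the endoribonuclease of the unfolded protein response, and it cuts XBP1 mRNA in the loops of a pair of short hairpins that share the consensus CNGCAG.

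Sequences around this consensus are shown first, because they are what a reader would look for beside the values. Each window spans 30 bases of the transcript strand with the motif in capitals, from the transcripts of GENCODE release 44 on GRCh37. The first pair are the XBP1 hairpins, given as a reference for what the search finds. They lie in the coding sequence at chr22:29192126-29192155 and chr22:29192100-29192129, minus strand. The SMCR8 windows lie on the plus strand, at chr17:18219567-18219596 in the coding sequence and at chr17:18227236-18227265 and chr17:18227312-18227341 in the 3′ UTR. The FLCN window is at chr17:17116501-17116530 in the 3′ UTR, minus strand.
XBP1 site 564: ggucugcugaguCCGCAGcacucagacuac
XBP1 site 590: cuacgugcaccuCUGCAGcaggugcaggcc
SMCR8 site 973: uggcuuauaucuCUGCAGaccagcauaaaa
SMCR8 site 4175: gggaggagcagcCAGCAGcucuccugggug
SMCR8 site 4251: cguggggaagguCUGCAGacccgugugaac
FLCN site 2675: ggguaccuuuugCUGCAGuugugaauauuc
The site numbers are the positions of the first motif base from the 5′ end of the transcript.

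A site was counted as a hairpin where the third motif base lay in a predicted loop of 5 to 11 bases whose stem began with 3 or more base pairs. Both XBP1 windows met this rule, with loops of 6 and 7 bases. The search was for CUGCAG, which reads the same on both strands, and for the wider CNGCAG on the transcript strand, which contains CUGCAG. SMCR8 held CUGCAG 6 times, at positions 973 and 1388 in the coding sequence and 4251, 6948, 7528 and 7716 in the 3′ UTR, and none of the 6 was in a counted hairpin. At 4251 the motif sat in a larger predicted loop of 13 bases closed by 6 pairs. Of 600 tested protein-coding genes with a transcript within 10% of the length of SMCR8, 97.7% held CUGCAG at least once and 61.7% held it in a counted hairpin. FLCN held 5 copies with 2 in hairpins, and the copy at 2675 had a loop of 7 bases closed by 5 pairs. The predicted folding energy of that FLCN window was -1 kcal/mol, against -8.4 and -11.8 kcal/mol for XBP1 sites 564 and 590. Of genes as long as FLCN, 41.3% held CUGCAG in a counted hairpin. FNIP1 held 3 copies, WDR41 2 and FNIP2 1, with none in a hairpin, and C9orf72 held none in its reference transcript. Of genes as long as these, 94.8%, 89.8%, 96.3% and 86.7% held the motif for FNIP1, WDR41, FNIP2 and C9orf72, and 89.9% for FLCN. Among all 12225 tested protein-coding genes the shares were 85.0% with CUGCAG and 40.3% with a hairpin. With the wider CNGCAG, counted hairpins numbered 1 of 14 sites in SMCR8 (position 4175, loop of 8 bases), 7 of 14 in FLCN, 4 of 19 in FNIP2, 1 of 8 in FNIP1, 1 of 2 in C9orf72 and 0 of 5 in WDR41. Over all tested protein-coding genes, 17.3% of CNGCAG sites were in counted hairpins and 65.4% of genes held such a site. Of genes as long as SMCR8, 85.5% held one, with a median of 2 per gene. For genes as long as FLCN these values were 70.0% and 1. BLOC1S1, a known IRE1 substrate, held CUGCAG 3 times with none in a counted hairpin, so these windows do not hold every structure of interest. These matches are descriptions of letters and predicted folds.

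In the C9orf72 complex, SMCR8 mRNA was low in all IRE1-treated libraries, while C9orf72 and WDR41 did not pass the test. SMCR8 (ENSG00000176994, chromosome 17, 18218607 to 18231370, plus strand) has 2 exons and a transcript of 8297 bases, 4989 of them in the 3′ UTR. Its normalized counts, which are counts divided by the TMM-scaled library size, were 426, 422 and 365 for control replicates 1 to 3, against 175, 165 and 249 for IRE1-treated replicates 1 to 3. Every IRE1-treated library was below every control, and replicate 3 was the highest of the IRE1-treated ones. The mean was 404.7 ± 34.1 in the controls and 196 ± 45.7 after IRE1 (SD, n = 3), that is 48.5% of control, for a log2 fold change of -1.04 (SE 0.129). By this value SMCR8 was the 42nd lowest of all tested genes and the 4th lowest of those averaging 100 normalized counts or more. Without IRE1-treated replicate 3 the log2 fold change was -1.25.

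C9orf72 (ENSG00000147894, chromosome 9, 27535638 to 27573864, minus strand) gave 91.3, 98.4 and 110 normalized counts in the controls and 98.4, 74.0 and 92.3 after IRE1. The groups overlapped, and IRE1-treated replicate 2 was the lowest library. The log2 fold change was -0.18 (SE 0.150, 95% interval -0.50 to 0.14, adjusted p = 0.436 with edgeR's quasi-likelihood test and Benjamini-Hochberg adjustment over all tested genes). WDR41 (ENSG00000164253, chromosome 5, 76721795 to 76916436, minus strand), the subunit that anchors the complex at lysosomes, gave 742, 778 and 701 in the controls and 710, 779 and 779 after IRE1. These values overlapped almost fully. The log2 fold change was 0.03 (SE 0.0669, interval -0.11 to 0.17, adjusted p = 0.787), and its sign turned when only library size was used for scaling (-0.04) and without control replicate 3 (-0.0057). The lower ends of the intervals were -0.11 for WDR41 and -0.50 for C9orf72. Since SMCR8 was chosen for its low value, the partners were not tested against it.

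In the folliculin complex, both FNIP mRNAs fell by about the same amount and FLCN did not pass the test. FNIP1 (ENSG00000217128, chromosome 5, 130977407 to 131132710, minus strand) gave 358, 360 and 313 normalized counts in the controls and 246, 245 and 255 after IRE1. All IRE1-treated libraries were below all controls, with an SD of 5.71 after IRE1 against 26.5 in the controls. The log2 fold change of FNIP1 was -0.47 (SE 0.0915, interval -0.66 to -0.27, adjusted p = 0.00232), or 72.5% of control. FNIP2 (ENSG00000052795, chromosome 4, 159690178 to 159829202, plus strand) gave 299, 262 and 279 in the controls and 198, 202 and 212 after IRE1, again with no overlap. Its log2 fold change was -0.46 (SE 0.0968, interval -0.66 to -0.25, adjusted p = 0.00353), or 72.7% of control. FLCN (ENSG00000154803, chromosome 17, 17115526 to 17140502, minus strand), the subunit that carries the catalytic residue for Rag hydrolysis, gave 365, 380 and 390 in the controls and 346, 374 and 371 after IRE1. The FLCN groups overlapped, with a log2 fold change of -0.06 (SE 0.0803, interval -0.23 to 0.12, adjusted p = 0.674).

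**Figure D1:**
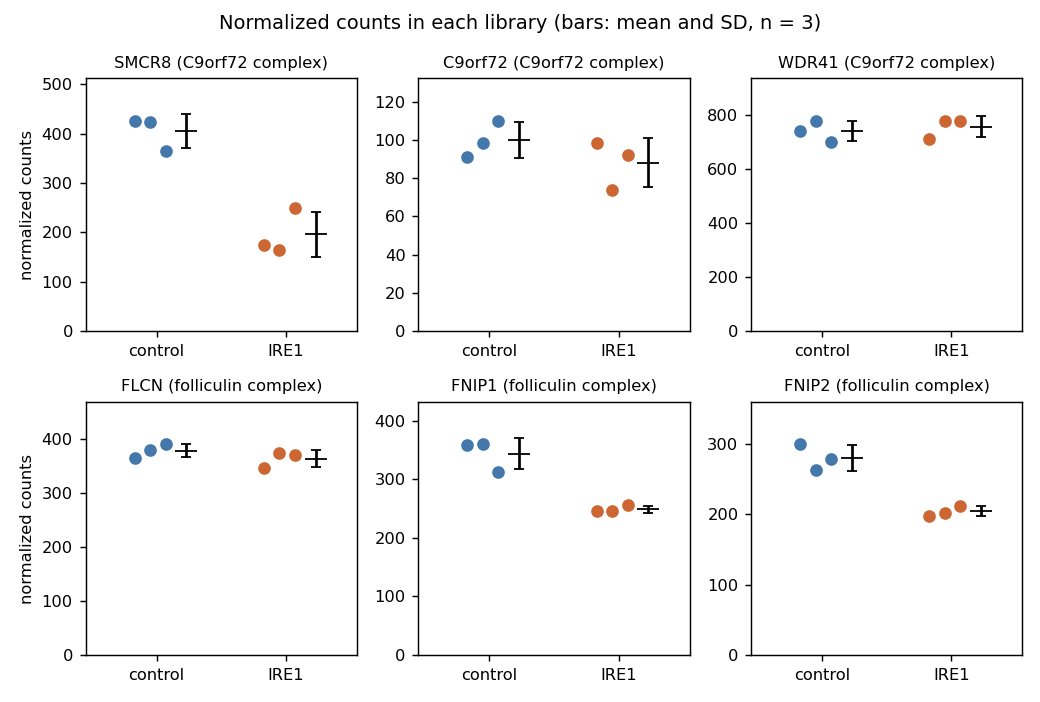
Normalized counts (vertical axis, starting at 0) of each gene in the 3 control and 3 IRE1-treated libraries, as points, with the mean and SD beside them. The groups are apart for SMCR8, FNIP1 and FNIP2, and they overlap for C9orf72, WDR41 and FLCN.

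Of the 5 partners of SMCR8, 2 fell and 0 rose at an adjusted p under 0.05. Among all 14398 tested genes, 12.4% were called lower and 10.3% higher, 22.7% in all. The same 2 partners had every IRE1-treated library below every control, which held for 20.0% of all tested genes. With 5 genes these counts do not set the partners apart from the background.

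Ratios within a library do not depend on how libraries are scaled against each other. The log2 ratio of FNIP1 to FNIP2 counts was 0.257, 0.456 and 0.166 in the controls and 0.313, 0.281 and 0.271 after IRE1. The means differed by -0.0046, with an exact p of 1 (two-sided permutation test over the 6 libraries). The ratio of FLCN to FNIP1 was above all controls in every IRE1-treated library, with means of 0.143 ± 0.154 in the controls and 0.546 ± 0.0600 after IRE1. That of FLCN to FNIP2 was likewise above, with 0.435 ± 0.131 and 0.834 ± 0.0484 (SD, n = 3). Each exact p was 0.1, the smallest that 3 against 3 can give, and 0.2 after adjustment over the 4 pairs tested. C9orf72 to WDR41 overlapped between the groups (difference -0.22, exact p = 0.4, adjusted 0.533). The ratio of SMCR8 to each of its partners was lower in every IRE1-treated library than in any control, by -0.88 to C9orf72, -1.10 to WDR41, -1.01 to FLCN, -0.60 to FNIP1 and -0.61 to FNIP2. These last differences follow from how SMCR8 was chosen and were not tested.

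The IRE1-treated replicates differed in the depth of the SMCR8 loss. Relative to the control mean, SMCR8 was at -1.20, -1.29 and -0.70 on the log2 scale in replicates 1, 2 and 3. FNIP1 was at -0.48, -0.48 and -0.42 and FNIP2 at -0.50, -0.47 and -0.40. Over the 1781 genes called lower, the medians were -0.42, -0.35 and -0.24, so replicate 3 was the mildest for these genes as a group too.

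SMCR8 shares its last exon with another annotated gene. The lincRNA RP1-178F10.3 (ENSG00000267350, chromosome 17, 18227536 to 18229211, plus strand) lies wholly inside the SMCR8 3′ UTR, at positions 4463 to 6138 of the SMCR8 transcript, with 53.8% of the transcript on its 5′ side and 2159 bases on its 3′ side. Its raw counts were 141, 163 and 149 in the controls and 77, 112 and 136 after IRE1. Reads that fall in this stretch cannot be assigned to either gene by position, and how the authors' counting treated them is not given in the sources used here. The log2 fold change of RP1-178F10.3 was -0.31 (SE 0.151, adjusted p = 0.160), and the groups overlapped.

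Counts named RP1-178F10.3 kept a larger part of their control level than counts named SMCR8. The annotation used here places RP1-178F10.3 wholly inside SMCR8, and which reads the authors' counting gave to each name is not known. The 6621 SMCR8 bases outside RP1-178F10.3 gave 61.1 ± 5.14 normalized counts per kilobase in the controls and 29.6 ± 6.90 after IRE1. This holds if the SMCR8 count took reads from both sides of RP1-178F10.3 and none inside it. RP1-178F10.3 gave 85.5 ± 12.5 and 68.2 ± 12.03 (SD, n = 3). The log2 ratio of SMCR8 to RP1-178F10.3 was -0.14, -0.56 and -0.73 in the controls and -1.06, -1.50 and -1.07 after IRE1. All IRE1-treated libraries were below all controls, a difference of -0.73, which was not tested because SMCR8 is its numerator. The motif windows at 4175 and 4251 shown above lie on the 5′ side of RP1-178F10.3. Whether reads from its 3′ side entered the SMCR8 count is not known. These gene counts do not show where along the transcript reads were lost.

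**Figure D2:**
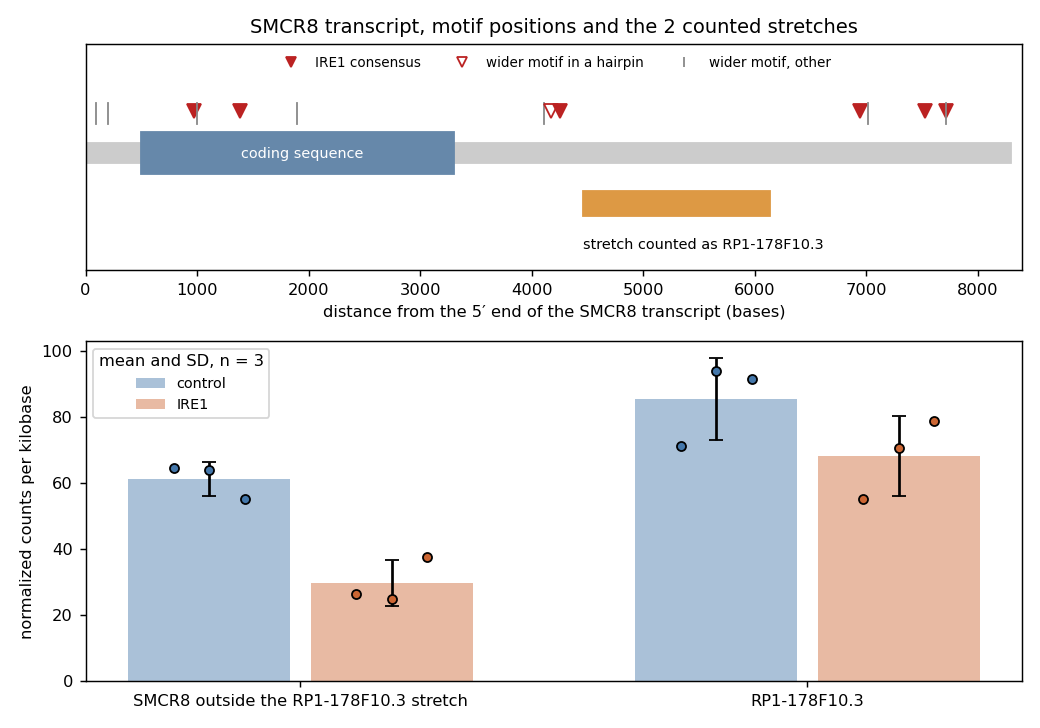
Top, the SMCR8 transcript drawn to scale from its 5′ end (bases), with the coding sequence, the motif sites and the stretch annotated as RP1-178F10.3 at 4463 to 6138. Bottom, normalized counts per kilobase for SMCR8, if its count held reads from both sides of that stretch and none inside it, and for RP1-178F10.3. Bars give the mean, error bars the SD and points the libraries (n = 3), where SMCR8 goes from 61.1 to 29.6 and RP1-178F10.3 from 85.5 to 68.2.

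The other genes that overlap a member or are the nearest coding genes on either side were read from the same annotation. Many had too few counts to be tested or were not in the count files, and 4 passed the test, beside 22.7% called in either direction over all tested genes. The others tested, SHMT1, TOP3A, PLD6, RAPGEF6 and the pseudogene RPL7P23 inside WDR41, did not pass. SHMT1, a folate enzyme on the opposite strand, shares 197 bases with the 3′ end of SMCR8 and was at 0.02 (adjusted p = 0.848), and TOP3A, a topoisomerase that starts 286 bases from SMCR8, was at -0.08 (adjusted p = 0.355). PDE8B shares 383 bases with WDR41 but had only 2 to 16 raw counts per library. Read-through gene models that share exons with FLCN and FNIP1 (ENSG00000264187 and ENSG00000273217) had at most 1 count. MPRIP, which overlaps FLCN on the opposite strand without shared exons, was lower (-0.22, adjusted p = 0.0104), and COPS3 on the other side of FLCN was higher (0.18, adjusted p = 0.0139), while PLD6 was at -0.05 (adjusted p = 0.742). Of the nearest coding genes of FNIP2, PPID, 45630 bases away, was higher (0.18, adjusted p = 0.0431). RAPGEF2, 194963 bases away, was lower (-0.42, adjusted p = 3.65e-04). RAPGEF6 next to FNIP1 was at -0.27 (adjusted p = 0.302). No pseudogene in the annotation is named after a member.

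The members differ in level as well as in change. In the controls, CPM on genes per kilobase of transcript (CPM scales each library to the same total) was 9.27 ± 0.512 for WDR41, 4.76 ± 0.153 for FLCN, 2.41 ± 0.191 for FNIP1, 2.25 ± 0.194 for SMCR8, 1.83 ± 0.119 for FNIP2 and 1.43 ± 0.133 for C9orf72 (SD, n = 3). The ranges of FNIP1 and SMCR8 overlapped (2.19 to 2.53 and 2.02 to 2.37), while the other neighbours in this order did not overlap. The median of 12225 tested protein-coding genes was 6.66 on this scale, so WDR41 alone was above it. After IRE1 the means were 8.99, 4.34, 1.66, 1.04, 1.27 and 1.19 in the same order, with SMCR8 lowest of the 6. The order depends on the transcript taken. With the length of all exons of a gene joined, SMCR8 came second (2.25) after WDR41 (4.78), followed by FNIP1 (2.00), FLCN (1.78), FNIP2 (1.18) and C9orf72 (0.656).

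The 3 genes with no overlap between the groups are also the 3 with the longest transcripts. SMCR8 (8297 bases), FNIP2 (7038) and FNIP1 (6568) are longer than 92.0%, 87.2% and 84.7% of tested protein-coding genes, while WDR41 (3678), FLCN (3667) and C9orf72 (3231) are near the median of 3367. Across all 12225 of these genes the log2 fold change went down with transcript length (Spearman's rho -0.64 over genes, given without a p because genes are no replicates) and up with GC content (0.25). Genes of up to 1000 bases had a median log2 fold change of 0.24, those of 3000 to 4000 bases -0.03 with 6.59% called lower, those of 6000 to 8000 bases -0.20 with 37.4%, and those over 8000 bases -0.27 with 46.1%. SMCR8 was below this trend: 0 of the 600 genes within 10% of its length had a lower value, a description of the gene that was chosen for being low. FNIP1 had 101 of 951 and FNIP2 91 of 834 such genes below it, and 34.6% and 36.9% of those genes were called lower. C9orf72 had 196 of 1333 below it, FLCN 643 of 1391 and WDR41 974 of 1387.

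When a loess trend with transcript length and GC content was removed from each library, the log2 fold change was -0.82 for SMCR8, -0.24 for FNIP1 (adjusted p = 0.0742) and -0.24 for FNIP2 (adjusted p = 0.102). The calls of FNIP1 and FNIP2 were lost there. C9orf72 was then at -0.12, FLCN at -0.02 and WDR41 at 0.12 (adjusted p = 0.217). Length was not varied in the experiment, and its part in these values was not tested.

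**Figure D3:**
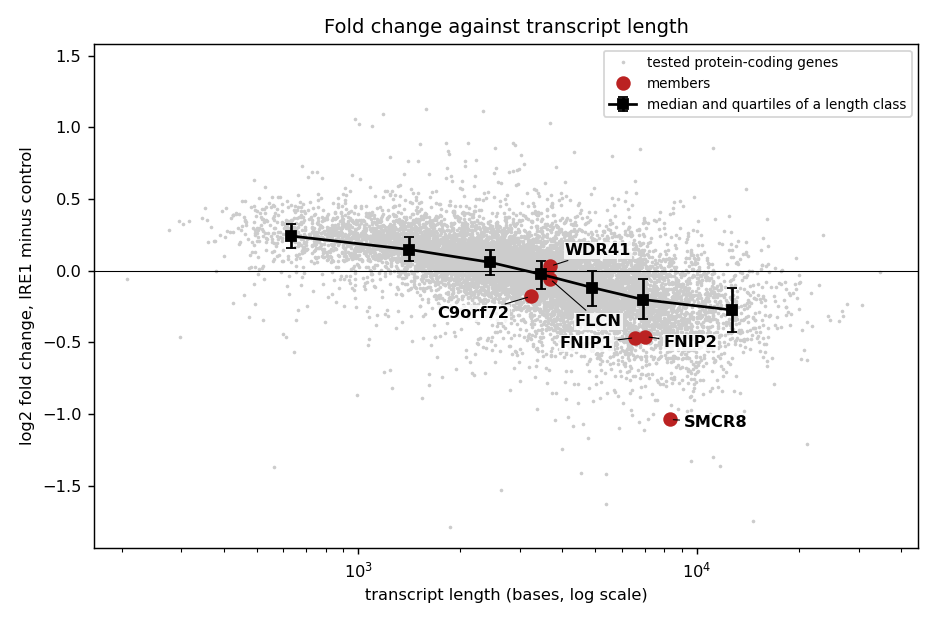
Log2 fold change (IRE1 minus control) against transcript length (bases, log axis) for the 12225 tested protein-coding genes in grey, with black squares and bars for the median and quartiles of 7 length classes and red points for the 6 members. WDR41 and FLCN lie within the quartiles of their length class, C9orf72 at -0.18 lies below the lower quartile of the same class (-0.13), FNIP1 and FNIP2 at about -0.46 lie below theirs, and SMCR8 at -1.04 lies further below.

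The genes whose values over the 6 libraries were most like those of SMCR8 were found by the smallest root mean square difference of log2 deviations from the control mean, among 10301 other genes averaging 100 normalized counts or more. They were NFAT5 (0.125), UTRN (0.132), TET2 (0.140), SPIN4 (0.153) and the pseudogene ZNRF2P2 (0.154). NFAT5, a transcription factor of the osmotic stress response, gave 160, 179 and 165 normalized counts in the controls and 63.6, 63.4 and 111 after IRE1. Like SMCR8, it was highest in replicate 3 among the IRE1-treated libraries. TET2, a dioxygenase that oxidizes 5-methylcytosine, gave 284, 285 and 252 in the controls and 126, 138 and 182 after IRE1, also with its highest IRE1-treated value in replicate 3. The log2 fold changes of the 5 genes ranged from -1.06 to -0.87, and since they were picked for this likeness no test is given. The shared pattern over replicates also follows from how these genes were picked. Their transcripts had 13289 (NFAT5), 12918 (UTRN), 9589 (TET2), 4105 (SPIN4) and 420 bases (ZNRF2P2).

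The other genes of the pathway moved in both directions. Of 71 genes in 10 lists, 67 were tested, 12 were lower, 6 were higher and 49 did not pass, with a median log2 fold change of -0.03 against 0.0045 over all tested genes. Over all tested genes 12.4% were called lower and 10.3% higher. Among the Rag GTPases, the Ragulator scaffold and SLC38A9, 3 of 10 rose and 0 fell, beside 10.3% higher over all tested genes. These were the Ragulator subunits LAMTOR2 (0.44, adjusted p = 0.00118), LAMTOR4 (0.34, adjusted p = 0.00252) and LAMTOR5 (0.30, adjusted p = 0.00361). They have transcripts under 1000 bases, a class in which 53.7% of protein-coding genes were called higher. With the length and GC trend removed LAMTOR2 was at 0.27 (adjusted p = 0.00450), LAMTOR4 at 0.17 (adjusted p = 0.0473) and LAMTOR5 at 0.13 (adjusted p = 0.213). RRAGD was then called higher (0.24, adjusted p = 0.00184) and RRAGA lower (-0.17, adjusted p = 0.0452).

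Upstream of the Rag GTPases the GATOR complexes were read, beside 22.7% called in either direction over all tested genes. In GATOR1, the GTPase-activating complex for RagA and RagB, 0 of 3 passed. In GATOR2, which opposes GATOR1, 1 of 5 passed, SEC13 (0.16, adjusted p = 0.0222), which is also a nuclear pore and COPII protein and was at 0.09 (adjusted p = 0.199) with library size only and at 0.04 (adjusted p = 0.648) with the trend removed. SEC13 was called in 9 of 16 alternatives, and lost its call without control replicate 1, control replicate 2 or IRE1-treated replicate 2 (adjusted p from 0.103 to 0.115). With the trend removed WDR59 was called higher (0.19, adjusted p = 0.0497) and SEH1L lower (-0.19, adjusted p = 0.0439).

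Downstream, of the 3 MiT/TFE factors tested, 1 passed, beside 22.7% over all tested genes. TFEB was at -0.08 and TFE3 at -0.03, neither past the test, and TFEC was not tested. MITF, outside the naming rule for its mean under 100 and named after its value was seen, was lower (-0.50, adjusted p = 0.0262). MITF was called in only 8 of 16 alternatives, and its call was lost with DESeq2 (adjusted p = 0.0728), with the trend removed (-0.36, adjusted p = 0.119) and without any single library other than IRE1-treated replicate 3 (adjusted p from 0.0615 to 0.0990 where lost). In the ULK1 complex, which starts autophagy and has been tied to the C9orf72 complex, RB1CC1 (-0.43, adjusted p = 0.00258) and ULK1 (-0.19, adjusted p = 0.0334) were lower and ATG101 higher (0.30, adjusted p = 0.00421) of 4 tested. Over all tested genes 12.4% were lower and 10.3% higher. RB1CC1 has 6636 bases, in a length class with 37.4% called lower, and ATG101 has 1433, in a class with 28% called higher. With the trend removed ULK1 lost its call (-0.08, adjusted p = 0.349), and RB1CC1 was at -0.20 (adjusted p = 0.0456) and ATG101 at 0.18 (adjusted p = 0.0454). ULK1 was called in 9 of 16 alternatives, and lost its call without any of the 3 control libraries or IRE1-treated replicate 1 (adjusted p from 0.0714 to 0.132).

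Among the small GTPases tied to the complex, 1 of 9 rose, beside 10.3% over all tested genes. This was ARF5 (0.26, adjusted p = 0.00414), which was at 0.11 (adjusted p = 0.118) with the trend removed. SLC66A1, the lysosomal anchor of the complex, was at 0.19 (adjusted p = 0.133). Of 9 genes for AMPK subunits and HSP90 proteins, which bind or modify FNIP proteins, 1 fell, the kinase subunit PRKAA1 (-0.42, adjusted p = 0.00478, and -0.24 with the trend removed, adjusted p = 0.0388), beside 12.4% lower over all tested genes. HSP90AA1 was called higher with the trend removed (0.16, adjusted p = 0.0196).

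The other genes with DENN domains, most of which activate Rab GTPases, had the lowest median log2 fold change of the 10 lists. Of 19 tested, 7 fell and 0 rose, with a median of -0.21, beside 12.4% lower over all tested genes. The 3 lowest were DENND4C (-0.62, adjusted p = 0.00224), DENND1B (-0.54, adjusted p = 0.00396) and SBF2 (-0.43, adjusted p = 0.00527). Their transcripts had a median of 6036 bases but ranged from 2441 (DENND10) to 9506 (DENND5B), across several length classes. Protein-coding genes of 4000 to 6000 bases had 22.1% lower calls and a median of -0.12. Those of 6000 to 8000 bases had 37.4% and -0.20, and those over 8000 bases 46.1% and -0.27. With the length and GC trend removed 1 of the DENN genes was called lower, DENND4C (-0.36, adjusted p = 0.0369). DENND6B was then called higher (0.30, adjusted p = 0.0165). The part of length in these calls was not tested.

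**Figure D4:**
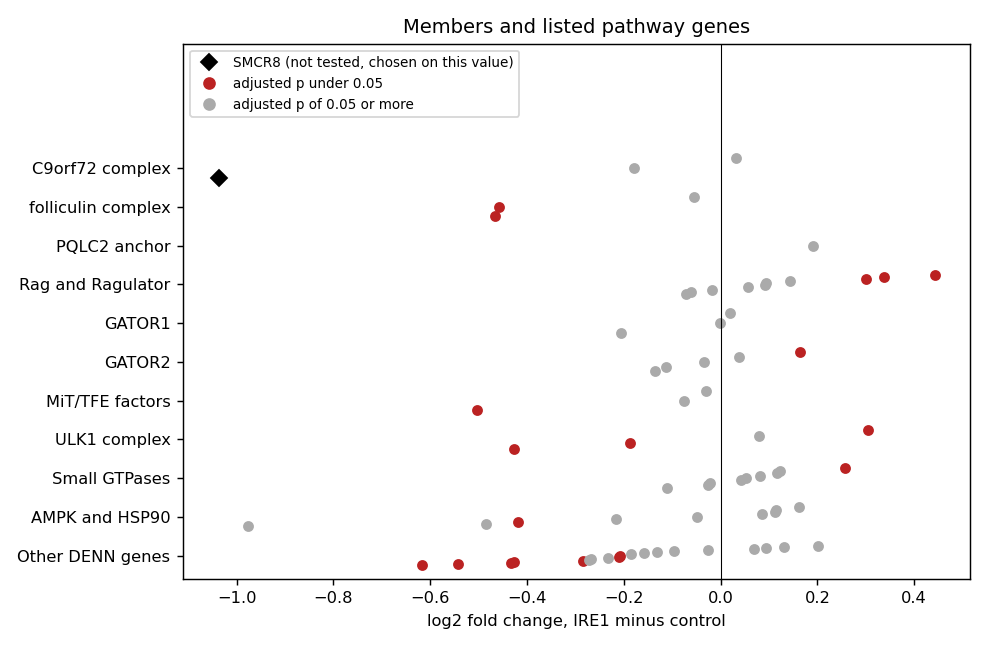
Log2 fold change (IRE1 minus control) of each tested gene of the complexes and lists described in the text, with red for an adjusted p under 0.05, grey for the others and a black diamond for SMCR8, which was not tested. The calls of the Ragulator list lie to the right, and the 7 calls among the other DENN genes lie to the left.

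The enzyme reaction was checked on known substrates. BLOC1S1 went from 614 ± 34.0 to 239 ± 33.0 normalized counts (SD, n = 3), a log2 fold change of -1.37 (adjusted p = 1.25e-06). XBP1 was at -0.09 (adjusted p = 0.143). In XBP1, as in BLOC1S1, reads upstream and downstream of the cut enter 1 gene count. For XBP1 all IRE1-treated libraries were below all controls, as for 20.0% of all tested genes. XBP1 was called lower in 4 of 16 alternatives. Among these were library size only (-0.17, adjusted p = 0.00371) and the length and GC trend removed (-0.19, adjusted p = 0.00150). All 8 plasma cell markers were expressed enough to be tested, with a summed level of 7675 to 7783 CPM in the controls and 7278 to 7313 after IRE1. B cell markers summed to at most 1.48 CPM, myeloid markers to at most 1.91 and erythroid markers to at most 0.186, and T cell markers to 41.4 to 50.2, nearly all of it CD3E, with CD3D and CD8A at or near 0. Counts on genes ranged from 19615715 to 25678499 per library, and the TMM factors were higher in all controls (1.02 to 1.03) than after IRE1 (0.947, 0.980 and 0.996). At this depth the members had 70 to 877 raw counts per library, with C9orf72 the lowest at 70 to 108.

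**Figure D5:**
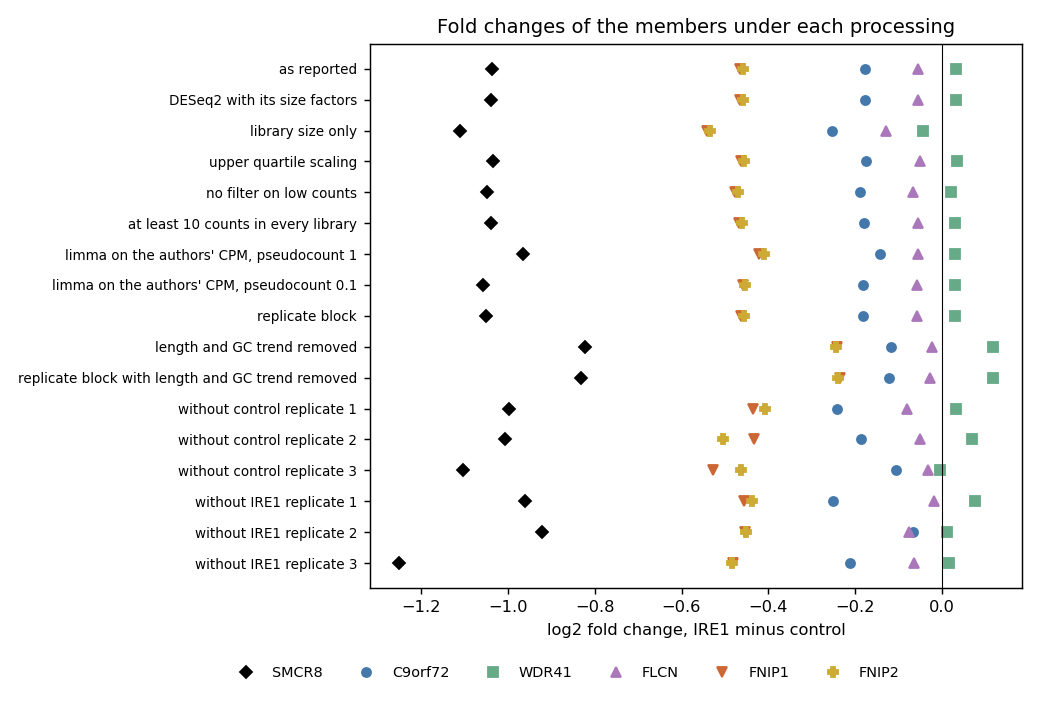
Log2 fold change (IRE1 minus control, horizontal axis) of each member as reported and under 16 other ways of processing (rows). SMCR8 lies between -1.25 and -0.82 throughout, FNIP1 and FNIP2 stay together and move towards 0 when the length and GC trend is removed, and WDR41 lies on either side of 0.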

How the data were processed

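The authors trimmed reads with Cutadapt 1.12, aligned them to GRCh37 (hg19) with STAR 2.5.3a and counted them per Ensembl gene with HTSeq 0.6.1p1, per the submitters' processing notes. Raw counts were deposited for each library. HTSeq's strand and overlap settings are not given in the sources used here. The 5 HTSeq summary lines (21.4 to 23.2% of counts) were left out. CPM values, normalized by the authors and deposited for the more expressed genes, served only for an alternative.

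Counts were filtered, scaled with TMM and tested with edgeR 4.0.16 (R 4.3.3), using its quasi-likelihood test and adjusting p-values by Benjamini-Hochberg over 14398 genes and a threshold of 0.05, with no covariates. The script was tested on simulated data. GENCODE release 44 on GRCh37 named 55538 of 57905 identifiers, and ViennaRNA 2.7.2 folded motif windows. Alternatives used DESeq2 1.42.0, limma 3.58.1, other scalings and filters, a loess trend (span 0.5) with length and GC content, a block for the replicate number, and each library left out. The members, lists and tests were chosen with earlier results of these data known. The genes named are the members, XBP1 and BLOC1S1, genes that overlap or neighbour a member, up to 3 genes a direction per list (adjusted p under 0.05, mean of at least 100 normalized counts) and the 5 genes most like SMCR8. Listed genes called with the trend removed but not in the reported fit are named too. The result of 1 list is not reported here.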

Additional observations from a re-analysis of the deposited data

How the results depend on the processing

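Of 96 fold changes of the members under 16 alternatives each, 90 kept their direction and, for the 5 partners of SMCR8, their side of the threshold. WDR41, which was never called, changed sign with library size only (-0.043) and without control replicate 3. FNIP1 and FNIP2 lost their calls with the length and GC trend removed (-0.24 and -0.24) and with the replicate block added to it (-0.24, adjusted p = 0.121, and -0.24, adjusted p = 0.160). The cause was not tested. Leaving out 1 library in turn gave -1.25 to -0.92 for SMCR8, -0.25 to -0.07 for C9orf72, -0.0057 to 0.075 for WDR41, -0.08 to -0.02 for FLCN, -0.53 to -0.43 for FNIP1 (adjusted p from 9.98e-04 to 0.0217) and -0.50 to -0.41 for FNIP2 (adjusted p from 0.00198 to 0.0330).

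Over all genes, 1781 were lower and 1489 higher. With library size only, which moved the median of all genes to -0.07, there were 2596 lower and 683 higher, so that 79.2% of calls were lower against 54.5%. With the trend removed there were 565 and 986 (36.4% lower), and 475 and 864 with the replicate block added to it (35.5%). Leaving out 1 library gave 972 to 2221 lower and 638 to 2091 higher genes. The lower calls moved by over 1.5 times without control replicate 1 (972), control replicate 2 (992) or IRE1-treated replicate 2 (1089), and the higher calls without these (709, 638 and 893) or without control replicate 3 (947). The replicate block alone gave 1496 lower and 1117 higher genes, -1.05 for SMCR8, -0.46 for FNIP1 (adjusted p = 0.00466) and -0.46 for FNIP2 (adjusted p = 0.00735). Of the named list genes, SEC13 (adjusted p = 0.0615) and ULK1 (adjusted p = 0.0520) lost their calls with the block alone, and LAMTOR4 (0.0762), RB1CC1 (0.0504) and ATG101 (0.0807) only with the block and the trend together. Same-numbered libraries did not deviate together (correlations of -0.028, 0.0020 and -0.098). With 3 libraries a group these correlations cannot tell whether they came from the same RNA or were handled together. The sources used here do not state such a pairing. Not every library correlated best with the one of its own number.

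With 3 libraries a group, exact tests of ratios cannot go below 0.1. C9orf72, with 70 to 108 raw counts, has the widest interval of the 6.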
